A study of Homo sapiens with 6 samples.

Results

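STAT5A and STAT5B, the paired transcription factors of the JAK-STAT5 pathway, and CISH, SOCS2 and PIM1, target genes of that pathway, were followed through 6 RNA sequencing libraries of Sum159, a human breast cancer line of the triple-negative kind. These 5 genes, of 58336 in the count table, were taken by Ensembl identifier with earlier results of these libraries known, because STAT5A RNA was higher in cells recovered from mouse lungs. The question was whether its targets went with it. Lung-against-culture values of the 5 genes are therefore given as a description, without a test.

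All libraries are Sum159 cells labelled high or low for ITGB4, the integrin beta-4 subunit. The lung-recovered groups were ITGB4-low cells (clones 1 and 3, 1 library each) from lungs that also held co-injected LM2 cells, by that name a lung-seeking derivative of MDA-MB-231, and ITGB4-low clone 1 cells (1 library) from lungs of mice given bleomycin, a drug that injures the lung, through the trachea. The cultured groups were ITGB4-high cells (1 library) and ITGB4-low controls (clones 1 and 3, 1 library each). Cells of the lung groups had been injected by tail vein, and the lungs were dissociated, kept in a dish overnight and sorted for tdTomato. Trigger, passage through the lung and sorting cannot be told apart, because the controls stayed in dishes. Whether human LM2 reads entered the LM2 lung libraries was not tested.

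Cytokine and hormone receptors without kinase activity of their own signal through JAK kinases, which phosphorylate STAT5 proteins. The phosphorylated proteins pair, enter the nucleus and bind short palindromic sites near their targets. In breast tissue the pathway is best known for prolactin signalling and milk-gland development. STAT5 activity is set by phosphorylation, which RNA counts do not measure, and CISH and SOCS2 are classic feedback targets whose proteins dampen the receptors.

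The sites that STAT5 recognises are shown first, since they set CISH apart from the other members that could be searched. RefSeq start windows (GRCh38.p14, 250 bases before to 50 after a start) were matched for 4 of the 5 members, and SOCS2 was not matched. The searched motif was TTCNNNGAA, which reads the same on both strands. It occurred 4 times in the CISH window and 0 times in the windows of STAT5A (3 starts), STAT5B and PIM1. At least 1 copy was found in 7.66% of 35116 windows of this length, and at least 4 copies in 0.0199% of them (7 windows). A BCL6 window, 1 of 2 for this further known STAT5 target, also held 4 and is shown for that count. Of 15 other listed targets with windows, 4 had the motif in any window, BCL6 among them. A match is a description of letters, not of binding. The CISH window (chr3:50611725-50612024, minus strand) and the BCL6 window (chr3:187745419-187745718, minus strand) follow with the motif in capitals. None of the 4 CISH copies overlapped another; they began at -241, -230, -129 and -112 from the start. The 4 BCL6 copies began at -28, -5, 11 and 37.
CISH: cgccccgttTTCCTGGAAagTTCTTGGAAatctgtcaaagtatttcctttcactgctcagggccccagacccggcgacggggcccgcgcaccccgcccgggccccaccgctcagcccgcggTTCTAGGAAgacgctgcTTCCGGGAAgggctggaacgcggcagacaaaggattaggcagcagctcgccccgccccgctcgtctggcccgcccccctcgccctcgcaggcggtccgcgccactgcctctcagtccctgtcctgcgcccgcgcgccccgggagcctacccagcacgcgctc
BCL6: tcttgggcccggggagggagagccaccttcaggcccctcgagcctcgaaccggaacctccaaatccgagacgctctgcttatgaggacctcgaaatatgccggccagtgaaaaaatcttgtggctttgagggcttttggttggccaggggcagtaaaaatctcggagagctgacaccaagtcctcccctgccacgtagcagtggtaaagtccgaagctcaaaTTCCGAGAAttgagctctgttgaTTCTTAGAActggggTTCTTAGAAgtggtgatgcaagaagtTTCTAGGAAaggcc

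The STAT5A windows are shown because this gene's RNA was near 0 in every cultured library. Of its 3 RefSeq starts, the middle one (window chr17:42287297-42287596, plus strand) is the start that GENCODE gives for the gene and had 5 CpG dinucleotides, and the window of the downstream one (chr17:42288248-42288547, plus strand) had 37. The most upstream window (chr17:42287189-42287488, plus strand), which overlaps the middle one, had 3 and is not printed. Gene counts do not tell which start was used. No capitals are given, since the motif was not in these letters.
STAT5A middle start: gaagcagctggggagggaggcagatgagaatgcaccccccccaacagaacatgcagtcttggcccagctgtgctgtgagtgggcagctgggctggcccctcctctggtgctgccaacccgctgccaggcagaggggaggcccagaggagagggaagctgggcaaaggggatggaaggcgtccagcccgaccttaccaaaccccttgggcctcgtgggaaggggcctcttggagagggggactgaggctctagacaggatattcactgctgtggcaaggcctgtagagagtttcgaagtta
STAT5A downstream start: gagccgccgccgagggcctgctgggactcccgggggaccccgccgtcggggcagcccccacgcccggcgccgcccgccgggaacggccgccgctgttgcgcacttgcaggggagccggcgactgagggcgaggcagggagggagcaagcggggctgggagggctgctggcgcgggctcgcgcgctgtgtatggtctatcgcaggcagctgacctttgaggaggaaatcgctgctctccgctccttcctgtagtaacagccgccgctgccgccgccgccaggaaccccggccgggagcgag

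STAT5A (ENSG00000126561, chromosome 17, 42287547 to 42311943, plus strand) was nearly silent in culture and present in all lung libraries. Levels are CPM, that is counts per 1000000 of the library total after TMM scaling. STAT5A stood at 11.3 CPM in LM2 lung clone 1, 10.7 in LM2 lung clone 3 and 8.96 in bleomycin lung clone 1 (146, 167 and 140 counts), against 0.51 in ITGB4-high cells and 0.415 and 0.321 in control clones 1 and 3 (7, 6 and 7 counts). Lung and cultured libraries did not overlap, and the cultured values were a little above the floor of 3 counts (0.138 to 0.232 CPM). Each lung library was 27.2-fold, 33.2-fold and 21.6-fold above the control of its own clone, with 95% counting intervals of 12.2 to 75.4, 15.8 to 83.8 and 9.68 to 59.9. The 3 log2 ratios averaged 4.75 ± 0.31 (SD, n = 3 libraries, of which 2 share clone 1 and its control). In the edgeR fit the log2 change of all lung libraries over control was 4.80 (SE 0.32). SE of a fitted change, here and below, is the absolute log2 change over the square root of edgeR's F statistic. It is not a direct standard error and can understate counting error where counts are few, as for STAT5A in culture. In bulk RNA, more cells with STAT5A and more STAT5A RNA per cell cannot be told apart.

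**Figure D1:**
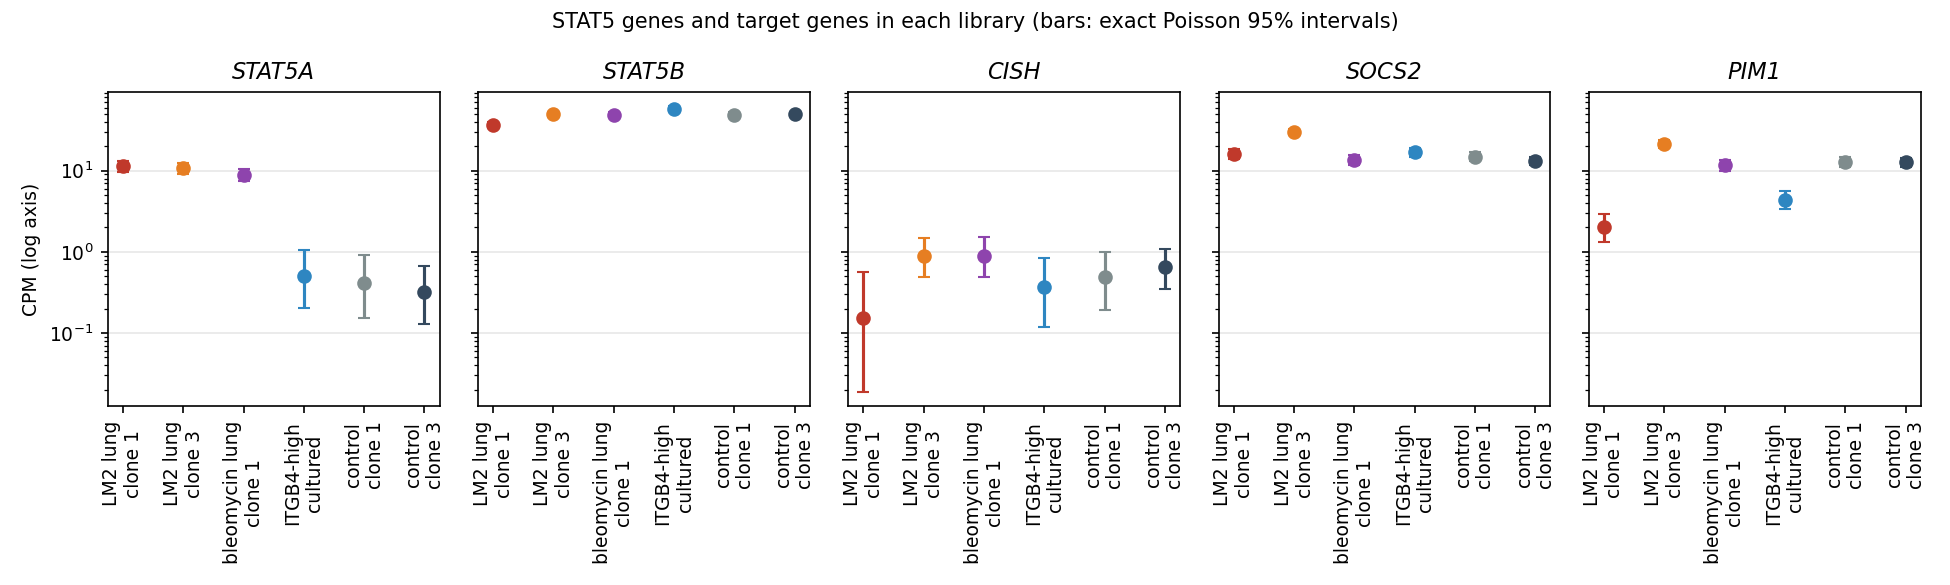
CPM (log axis) of the 5 genes in each of the 6 libraries, with exact Poisson 95% intervals that cover counting error alone. STAT5A separates the 3 lung libraries (8.96 to 11.3 CPM) from the 3 cultured ones (0.321 to 0.51 CPM), while the ranges of the other genes overlap.

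STAT5B (ENSG00000173757, chromosome 17, 42199168 to 42276707, minus strand), which lies 10840 bases from STAT5A and encodes a closely similar protein, was the main STAT5 transcript everywhere. It stood at 36.4, 49.4 and 48.9 CPM in LM2 lung clone 1, LM2 lung clone 3 and the bleomycin lung library, against 58.0 in ITGB4-high cells and 48.7 and 49.99 in the controls. The lung and control ranges overlapped, and LM2 lung clone 1 was the lowest library. The fitted log2 change over control was -0.14 (SE 0.17). Per length, as RPKM (CPM per 1000 exon bases), STAT5A was 25.8%, 19.5% and 17.0% of the STAT5 total in LM2 lung clone 1, LM2 lung clone 3 and the bleomycin lung library, against 0.976% in ITGB4-high cells and 0.946% and 0.715% in the controls. The summed STAT5 level was 7.60, 9.52 and 9.14 RPKM in these lung libraries, against 9.09 in ITGB4-high cells and 7.63 and 7.81 in the controls. Of the distinct 50-base stretches in STAT5A transcripts, 8.61% also occur in STAT5B, so a small part of the reads could be split or dropped between them.

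CISH (ENSG00000114737, chromosome 3, 50606490 to 50611831, minus strand), a feedback gene whose start window held 4 copies of the motif, stayed close to the detection floor. It stood at 0.155, 0.894 and 0.896 CPM in LM2 lung clone 1, LM2 lung clone 3 and the bleomycin lung library (2, 14 and 14 counts), against 0.364 in ITGB4-high cells (5 counts) and 0.484 and 0.643 in the controls (7 and 14 counts). The lowest and the highest libraries were both lung libraries, so the groups overlapped. The ratio of LM2 lung clone 1 to its control was 0.32 (counting interval 0.0324 to 1.68), that of LM2 lung clone 3 was 1.39 (0.615 to 3.15) and that of the bleomycin lung library 1.85 (0.699 to 5.42). All 3 intervals include 1, so a change below these bounds was not detectable at this depth. CISH exons overlap MAPKAPK3 on the other strand, which was at 49.8, 45.1 and 57.7 CPM in the lung libraries and at 49.7 and 50.3 in the controls. The library kit marks strand per the labels, but whether the counting used it is not known here.

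SOCS2 (ENSG00000120833, chromosome 12, 93569814 to 93583487, plus strand), a brake on growth hormone and prolactin receptor signalling, was higher in 1 lung library. It stood at 16.1, 30.0 and 13.7 CPM in LM2 lung clone 1, LM2 lung clone 3 and the bleomycin lung library, against 17.0 in ITGB4-high cells and 14.9 and 13.1 in the controls. LM2 lung clone 3 was 2.29-fold above its control (counting interval 1.98 to 2.67). The other ratios were 1.08 (0.886 to 1.31) for LM2 lung clone 1 and 0.917 (0.755 to 1.11) for the bleomycin lung library. SOCS2-AS1, whose exons overlap SOCS2 on the other strand, was also highest there (2.23 CPM, against 0.464 and 0.96 in the other lung libraries and 1.38 and 0.826 in the controls).

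PIM1 (ENSG00000137193, chromosome 6, 37170203 to 37175426, plus strand), a survival kinase induced by STAT5 and by STAT3, lay on either side of its controls in the LM2 lung clones. It stood at 2.01, 21.5 and 11.7 CPM in LM2 lung clone 1, LM2 lung clone 3 and the bleomycin lung library, against 4.37 in ITGB4-high cells and 12.9 and 12.7 in the controls. The lowest and the highest of all 6 libraries were the LM2 lung pair, on either side of the controls. Their ratios to their own controls were 0.156 (counting interval 0.0995 to 0.237) and 1.70 (1.44 to 1.998), and that of the bleomycin lung library was 0.906 (0.734 to 1.12). Fitted log2 changes over control for all lung cells were 0.21 (SE 0.71) for CISH, 0.51 (SE 0.36) for SOCS2 and -0.12 (SE 0.80) for PIM1.

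**Figure D2:**
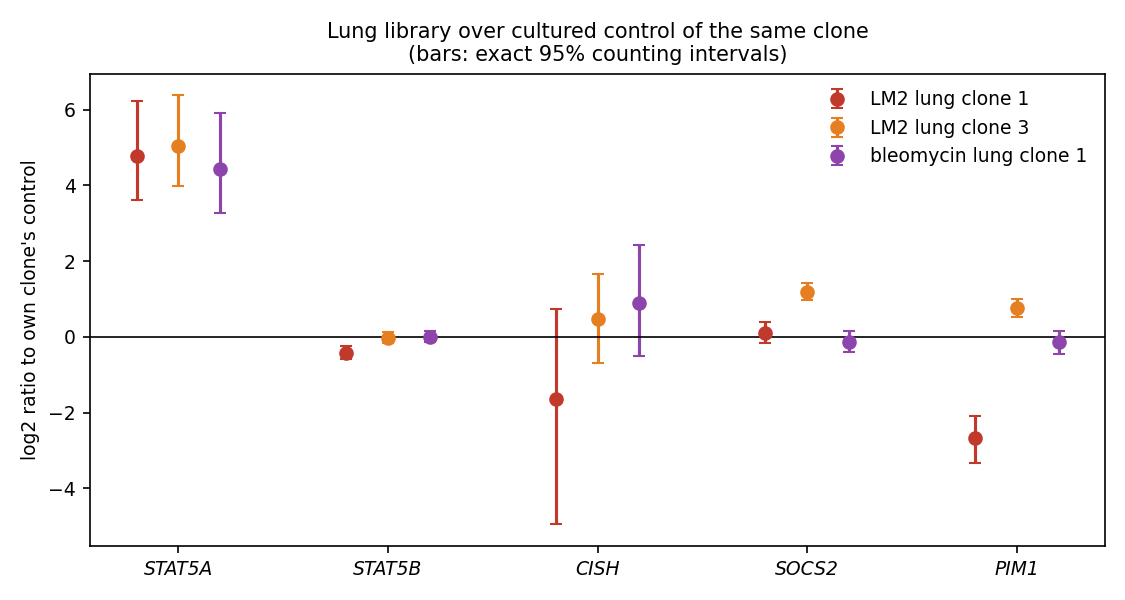
Log2 ratio of each lung library to the cultured control of the same clone, with exact 95% counting intervals. The STAT5A ratios lie between 4.43 and 5.05, and no other member has the same sign in all 3 lung libraries with intervals that exclude 0.

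STAT5A was thus within 8.96 to 11.3 CPM in the lung libraries, while SOCS2 spanned 13.7 to 30.0 and PIM1 2.01 to 21.5. The STAT5A levels of the LM2 lung pair did not differ beyond counting error (95% intervals of 9.54 to 13.3 CPM in clone 1 and 9.11 to 12.4 in clone 3), while these libraries held the lowest and the highest PIM1 of all 6. All 5 members passed the filter on low counts, STAT5A through its lung libraries and CISH through LM2 lung clone 3 and the bleomycin lung library. All 3 lung libraries lay above both controls for 1 of the 5 members, STAT5A, and 20.4% of all 15673 tested genes showed that order. Nothing is read from this count, since the members were chosen on that contrast.

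ITGB4-high cells were compared with ITGB4-low controls to ask whether the genes differ between the cultured states. None of the 5 members was called (0 of 5, edgeR's quasi-likelihood test with Benjamini-Hochberg adjustment at 0.05, where 0.0893% of genes were called, 0.0574% higher and 0.0319% lower), 0 had an unadjusted p under 0.05 (24.5% of genes did), and DESeq2 called 0 (9.63% of genes). With 5 genes, such counts are close to what these shares give. The log2 changes were 0.48 for STAT5A (SE 0.46, adjusted p = 0.649), 0.23 for STAT5B (SE 0.23, adjusted p = 0.56), -0.64 for CISH (SE 1.11, adjusted p = 0.753), 0.28 for SOCS2 (SE 0.41, adjusted p = 0.704) and -1.54 for PIM1 (SE 1.34, adjusted p = 0.507). STAT5A was near the floor in ITGB4-high cells (1 library, 7 counts). ITGB4 itself was at 383 CPM there, beside 470, 441 and 305 in the lung libraries and 25.9 and 24.6 in the controls. A link between the levels of these genes was not tested. PIM1 depended on the LM2 lung pair, which sets much of the spread: without LM2 lung clone 1 or without LM2 lung clone 3 it was called lower in ITGB4-high cells (log2 change -1.54 and -1.56, adjusted p = 0.000147 and 0.00108), as 42% and 41.6% of all genes tested were called in those fits. The remaining LM2 library is then assumed to vary like the controls.

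Bleomycin lung and LM2 lung libraries were then compared, lung against lung. Again 0 of 5 members were called in edgeR, where 0% of genes were, 0 had an unadjusted p under 0.05 (4.61% of genes did), and DESeq2 called 0 (0.338% of genes). STAT5A differed by -0.29 (SE 0.31, adjusted p = 0.933), STAT5B by 0.19 (SE 0.23, adjusted p = 0.937), CISH by 0.72 (SE 0.97, adjusted p = 0.94), SOCS2 by -0.75 (SE 0.43, adjusted p = 0.926) and PIM1 by -0.02 (SE 1.21, adjusted p = 1.00). A p above the threshold does not show equal levels, and for PIM1 the mean hides an LM2 lung pair at 2.01 and 21.5 CPM. Without LM2 lung clone 1, SOCS2 (-1.13, adjusted p = 0.00327) and PIM1 (-0.88, adjusted p = 0.0172) were called, and without LM2 lung clone 3, STAT5B (0.42, adjusted p = 0.049) and PIM1 (2.52, adjusted p = 0.00177) were. In those fits 7.42% and 19.2% of all genes tested were called.

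The same stretch of chromosome 17 was examined around STAT5A, since STAT5B and STAT3 flank it, STAT3 by 1381 bases. Of 60 other tested genes that start within 1 Mb, the median log2 ratio to the own control was 0.01 in LM2 lung clone 1, -0.06 in LM2 lung clone 3 and 0.09 in the bleomycin lung library (0.1 CPM added to each level). A ratio above 1 on this log2 scale was seen for 9, 7 and 7 of them, and for 6 in all 3 libraries (KRT14, KRT16, KRT17, HSD17B1, AOC2 and AOC3, named after their values were seen). The share of all tested genes with such ratios was not counted, so nothing particular to this stretch is read from these counts. Some of the 6 were low throughout, KRT16 at no more than 1.94 CPM and HSD17B1 at no more than 3.89. STAT3, the neighbour that relays interleukin-6 family signals, was at 286, 255 and 316 CPM in LM2 lung clone 1, LM2 lung clone 3 and the bleomycin lung library, against 188 in ITGB4-high cells and 232 and 315 in the controls, so its groups overlapped.

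**Figure D3:**
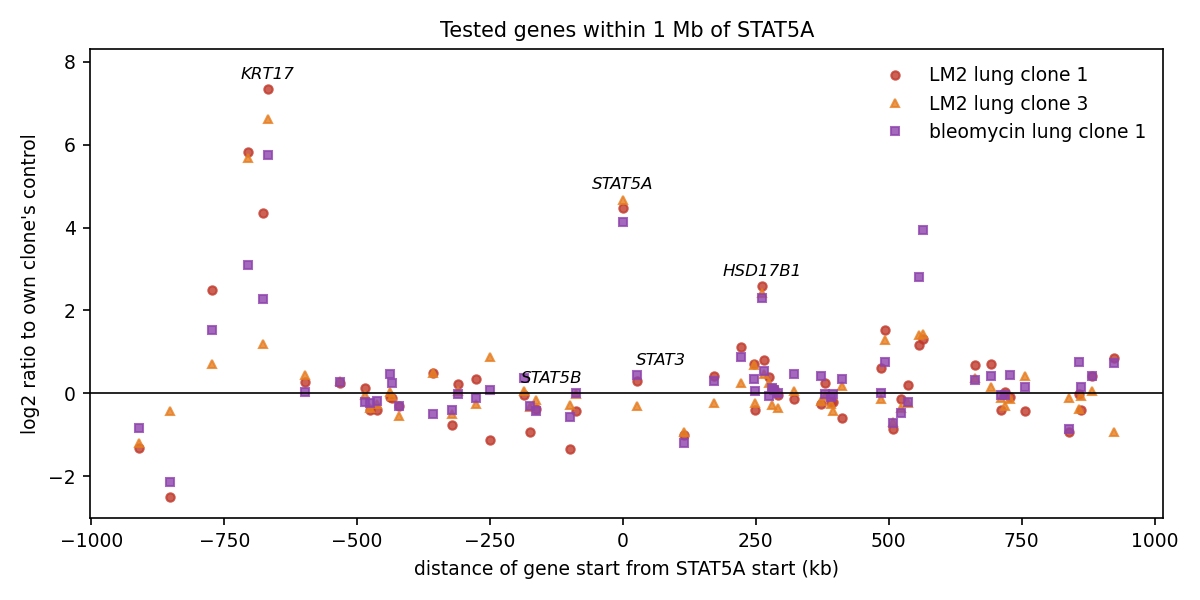
Log2 ratio of each lung library to its own control (0.1 CPM added) for tested genes by distance of their start from that of STAT5A, in kb. STAT5A stands above its closest neighbours STAT5B and STAT3. KRT17 (-668 kb) is the highest gene in all 3 libraries, while KRT16 (-678 kb) lies at 1.19 in LM2 lung clone 3.

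Among the STAT genes given here, compared per length, STAT5A changed its place in LM2 lung clone 3 and the bleomycin lung library. In LM2 lung clone 1 it stayed the lowest, as in culture. STAT2, which acts in type I interferon signalling, was at 8.16, 15.8 and 10.3 RPKM in LM2 lung clone 1, LM2 lung clone 3 and the bleomycin lung library, against 4.67 in ITGB4-high cells and 23.5 and 23.1 in the controls. All lung values of STAT2 were below both controls (log2 change -1.03, SE 0.27, adjusted p = 0.139 in edgeR). STAT6, which relays interleukin-4, was at 18.6, 16.5 and 18.9 RPKM in the lung libraries, against 11.7 in ITGB4-high cells and 19.2 and 22.1 in the controls. STAT4, named after its values were seen, was at 2.12, 0.494 and 1.02 RPKM, against 0.381 in ITGB4-high cells and 0.174 and 0.269 in the controls. STAT5A, at 1.96, 1.85 and 1.56 RPKM in lung cells, against 0.0887 in ITGB4-high cells and 0.0721 and 0.0558 in the controls, was the lowest of these in every cultured library, and STAT4 was lower in LM2 lung clone 3 and the bleomycin lung library.

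**Figure D4:**
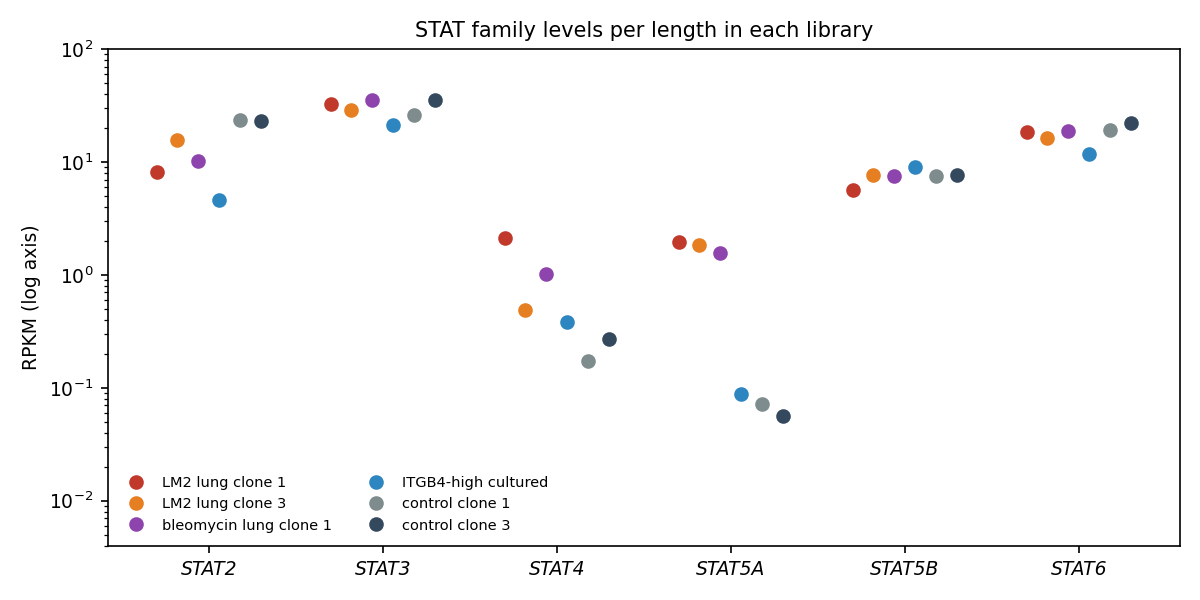
RPKM (log axis) of 6 STAT genes in each library. STAT5A and STAT4 are the low members, STAT5B lies between 5.64 and 8.999 RPKM in every library, and STAT3 lies above it.

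The wider pathway was read from a list of 79 further ligands, receptors, kinases, inhibitors, partners, other STATs and targets, of which 49 passed the filter. In lung cells against control 0 of 49 were called in edgeR (0.498% of genes were), 11 were higher and 8 were lower by an unadjusted p below 0.05 (38.8%, against 20.5% of all tested genes), and DESeq2 called 11 (8 higher, 3 lower; 8.06% of genes). The median log2 change was 0.12, against 0.00 over all tested genes. All 3 lung libraries were above both controls for 16 of the 49 (32.7%, against 20.4% of all genes) and below both for 11 (22.4%, against 25.4%). CSF2RA, counted among the 16, passed the filter through LM2 lung clone 3 and the bleomycin lung library alone (23 and 45 counts). Nothing is read from its place in these counts or from its call below. Without LM2 lung clone 1, 1 gene was called, CSF2RA, higher, and without LM2 lung clone 3, 5 were (MCL1, STAT4, CDKN1A and IL15RA higher, STAT2 lower), that is 2.04% and 10.2% of the 49, against 2.5% and 6.55% of all genes tested in those fits.

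Of the ligands 3 of 13 passed the filter on low counts, and of the receptors 6 of 16. Prolactin (PRL), growth hormone (GH1), erythropoietin (EPO) and IL2 had at most 1 count in any library. IL7, IL15 and TSLP, the ligands that passed, act mainly on lymphoid cells and, for TSLP, dendritic cells. IL7 was below both controls in all lung libraries, at 1.78, 3.13 and 2.88 CPM in LM2 lung clone 1, LM2 lung clone 3 and the bleomycin lung library, against 1.17 in ITGB4-high cells and 5.81 and 4.87 in the controls. IL15 was at 7.66, 3.06 and 2.56 CPM, against 1.09 in ITGB4-high cells and 3.60 and 2.57 in the controls, and TSLP at 6.35, 5.62 and 4.61 CPM, against 2.62 in ITGB4-high cells and 4.70 and 4.22 in the controls, both with overlap. The prolactin receptor PRLR did not pass the filter, at 0.387, 0 and 0.128 CPM in LM2 lung clone 1, LM2 lung clone 3 and the bleomycin lung library, against 0 in ITGB4-high cells and 0 and 0.138 in the controls. The growth hormone receptor GHR was at 0.155, 0.511 and 0.512 CPM, against 0.729 in ITGB4-high cells and 0.0692 and 0.551 in the controls. IL7R, the interleukin-7 receptor chain, differed widely between lung libraries, at 252, 1.53 and 18.7 CPM in LM2 lung clone 1, LM2 lung clone 3 and the bleomycin lung library, against 7.87 in ITGB4-high cells and 1.94 and 1.38 in the controls (log2 change 5.79, SE 2.21, adjusted p = 0.224, or 0.0317 in DESeq2). CSF2RA, the alpha chain of the GM-CSF receptor, was at 0.387, 1.47 and 2.88 CPM, against 0.364 in ITGB4-high cells and 0.138 and 0.0459 in the controls (2 counts and 1 count). Its partner chain CSF2RB had at most 1 count in any library. EPOR, the erythropoietin receptor, was at 3.25, 5.30 and 4.23 CPM in lung cells, against 2.697 in ITGB4-high cells and 2.21 and 1.88 in the controls (1.06, SE 0.32, adjusted p = 0.167). IL15RA, which presents interleukin-15, was at 32.0, 23.6 and 34.5 CPM, against 21.2 in ITGB4-high cells and 17.2 and 14.2 in the controls (0.93, SE 0.22, adjusted p = 0.115, or 0.00971 in DESeq2).

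Of the kinases, JAK2, which serves the prolactin, growth hormone and erythropoietin receptors, was lower in all lung libraries than in both controls, at 12.2, 19.6 and 17.5 CPM, against 4.45 in ITGB4-high cells and 27.8 and 31.6 in the controls. The lung change did not pass (-0.85, SE 0.23, adjusted p = 0.144, or 0.0394 in DESeq2). In ITGB4-high cells against control JAK2 had a log2 change of -2.74 (SE 0.40, adjusted p = 0.0653), which passed with the clone as a replicate block (adjusted p = 0.0378) and in DESeq2 (9.07e-07). With the block 2.32% of all genes were called in that comparison, against 0.0893% without it. JAK1 was at 206, 205 and 174 CPM in lung cells, against 239 in ITGB4-high cells and 249 and 233 in the controls. TYK2 was at 58.8, 58.4 and 50.9 CPM, against 55.1 in ITGB4-high cells and 49.7 and 48.6 in the controls, and the lymphoid kinase JAK3 had at most 1 count. In all, 0 of 49 pathway genes were called in ITGB4-high cells in edgeR, where by the unadjusted p 9 were higher and 10 were lower (38.8%, against 24.5% of all genes) and 11 called by DESeq2 (9.63% of genes). Without LM2 lung clone 1 or LM2 lung clone 3, 30 and 28 passed in that comparison (61.2% and 57.1%), but 42% and 41.6% of all genes tested were called in the same fits.

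Of 13 tested inhibitors, 4 stood above both controls in all lung libraries (SOCS1, SOCS7, PTPN1 and PTPN2) and 2 stood below both (SOCS5 and PIAS1), orders that 20.4% and 25.4% of all tested genes showed. SOCS1 was at 2.55, 1.98 and 1.86 CPM in LM2 lung clone 1, LM2 lung clone 3 and the bleomycin lung library, against 0.656 in ITGB4-high cells and 1.66 and 1.19 in the controls. The counting intervals of its ratios to the own control all included 1 (0.882 to 2.72, 0.953 to 2.91 and 0.629 to 2.01). SOCS3, the main brake on STAT3 signalling, was at 8.20, 7.79 and 14.1 CPM, against 6.12 in ITGB4-high cells and 4.77 and 9.55 in the controls, with overlap. The phosphatase PTPN1, which acts on JAK2 and TYK2, was at 235, 127 and 140 CPM, against 202 in ITGB4-high cells and 84.7 and 90.6 in the controls (0.93, SE 0.29, adjusted p = 0.17, or 0.0412 in DESeq2). PTPN2, a phosphatase of nuclear STATs, was at 84.3, 81.5 and 82.8 CPM, against 72.5 in ITGB4-high cells and 69.2 and 70.8 in the controls. PIAS1, a nuclear inhibitor of STAT proteins, was at 49.7, 91.0 and 80.2 CPM, against 67.5 in ITGB4-high cells and 112 and 141 in the controls. SOCS5 was at 51.8, 60.8 and 55.8 CPM, against 48.1 in ITGB4-high cells and 73.0 and 73.6 in the controls, and SOCS7 at 60.9, 53.8 and 57.4 CPM, against 98.8 in ITGB4-high cells and 46.7 and 45.2 in the controls. The blood-cell phosphatase PTPN6 had at most 3 counts in any library.

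Further targets lay above, below and on either side of the controls. CCND2, a cell cycle cyclin that STAT5 induces in several cell types, was lower in all lung libraries, at 34.5, 23.8 and 9.28 CPM in LM2 lung clone 1, LM2 lung clone 3 and the bleomycin lung library, against 76.8 in ITGB4-high cells and 87.2 and 103 in the controls. Its log2 change over control was -2.08 for all lung cells (SE 0.49, adjusted p = 0.117, or 0.0014 in DESeq2) and -3.35 for bleomycin lung cells (SE 0.33, adjusted p = 0.0896, or 3.15e-15 in DESeq2). The survival gene BCL2L1 was at 329, 228 and 237 CPM, against 344 in ITGB4-high cells and 248 and 240 in the controls. BCL6, of which a start window is printed above and which STAT5 represses in lymphoid and breast cells, was at 86.4, 94.3 and 158 CPM, against 112 in ITGB4-high cells and 109 and 127 in the controls, on either side of them. MCL1, a further survival gene, was at 1466, 758 and 1360 CPM, against 1754 in ITGB4-high cells and 660 and 758 in the controls. CDKN1A, a cell cycle inhibitor, was at 63.9, 27.8 and 44.0 CPM, against 72.2 in ITGB4-high cells and 13.8 and 18.6 in the controls (1.48, SE 0.37, adjusted p = 0.13, or 0.00396 in DESeq2). CCND1 was at 426, 299 and 292 CPM, against 491 in ITGB4-high cells and 417 and 446 in the controls, and MYC at 733, 759 and 620 CPM, against 939 in ITGB4-high cells and 741 and 767 in the controls. Of the PIM1 relatives, PIM3 was above both controls in all lung libraries (28.7, 34.1 and 42.4 CPM, against 27.0 in ITGB4-high cells and 21.7 and 21.3 in the controls) and PIM2 was not (5.26, 10.6 and 12.3 CPM, against 12.8 in ITGB4-high cells and 8.23 and 9.46 in the controls). The milk-protein genes CSN2, CSN3 and LALBA had 0 counts in every library.

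**Figure D5:**
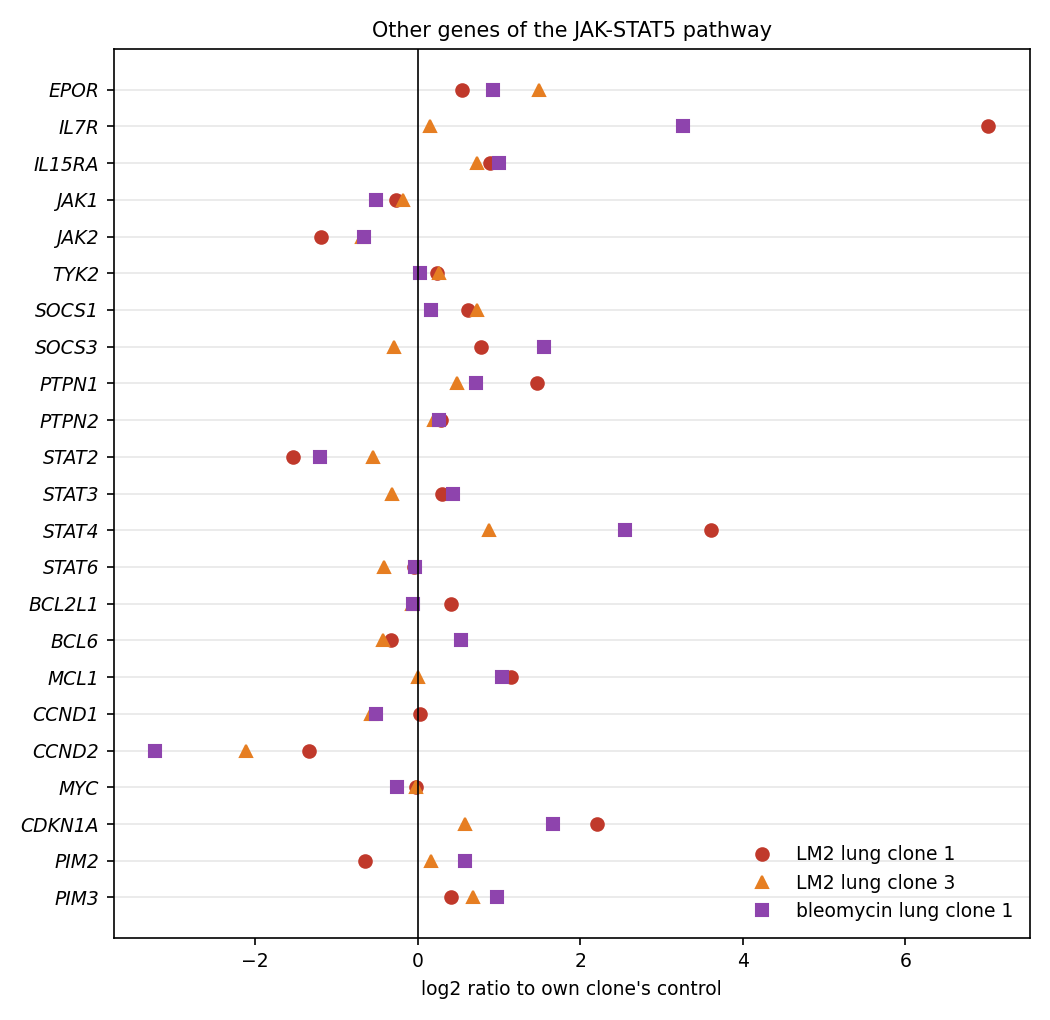
Log2 ratio of each lung library to its own control for 23 named genes of the pathway, ordered by role from receptors at the top to targets at the bottom. IL7R spans 0.15 to 7.02 between lung libraries and CCND2 lies at -1.34, -2.11 and -3.23 in LM2 lung clone 1, LM2 lung clone 3 and the bleomycin lung library.

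When the triggers were taken apart, the pathway count was likewise 0 of 49 in edgeR for LM2 lung cells against control (0.0319% of genes called), for bleomycin lung cells against control (0.0255%) and for bleomycin against LM2 lung cells (0%). By an unadjusted p below 0.05 there were 17, 11 and 5 (34.7%, 22.4% and 10.2% of the 49, against 15.6%, 14.5% and 4.61% of all genes). DESeq2 called 3, 1 and 1 (6.12%, 2.04% and 2.04% of the 49, against 4.13%, 3.68% and 0.338% of all genes). These counts moved with the LM2 lung pair. Without LM2 lung clone 1 they were 11, 25 and 9 (22.4%, 51% and 18.4% of the 49, against 11.6%, 28.1% and 7.42% of all genes tested). Without LM2 lung clone 3 they were 28, 25 and 19 (57.1%, 51% and 38.8%, against 40.8%, 27.2% and 19.2%). Nothing particular to the pathway is read from them.

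The 5 genes whose profile over the 6 libraries was closest to that of STAT5A were SERPINA1, OAS2, IQGAP2, SGPP2 and CRIP2, of 10108 protein-coding candidates. Likeness was the root mean square difference of centred log2 CPM, which was 0.34 for SERPINA1, a serine protease inhibitor, and 0.55 for OAS2, an interferon-induced antiviral enzyme. It was 0.62 for IQGAP2, a scaffold protein, 0.75 for SGPP2, a sphingosine phosphate phosphatase, and 0.87 for CRIP2, a LIM protein. SERPINA1 was at 142, 102 and 187 CPM in LM2 lung clone 1, LM2 lung clone 3 and the bleomycin lung library, against 10.2 in ITGB4-high cells and 7.06 and 6.15 in the controls. All 5 lie on other chromosomes than STAT5A.

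Host-cell markers were read beside these results, since STAT5A is abundant in blood cells. Of 10 lymphocyte markers 0 were above 3 counts in any library, and CD3E, CD2, MS4A1 and GZMB had 0 counts throughout. The 10 macrophage and myeloid markers summed to 13.9, 43.3 and 66.3 CPM in LM2 lung clone 1, LM2 lung clone 3 and the bleomycin lung library, against 147 in ITGB4-high cells and 60.1 and 45.9 in the controls, with 5, 4 and 6 of 10 above 3 counts in the lung libraries and 4 of 10 in each control. LAPTM5 made up most of each sum and AIF1 was at 0, while PTPRC and ITGAM stood above both controls in all 3 lung libraries. PTPRC, a marker of all white blood cells, had 30, 4 and 42 counts in these lung libraries, against 1 in ITGB4-high cells and 3 and 4 in the controls. Its ratio to the own control was 11.2 (counting interval 3.48 to 57.3) in LM2 lung clone 1, 1.39 (0.259 to 7.47) in LM2 lung clone 3 and 12.96 (4.14 to 65.4) in the bleomycin lung library. ITGAM, a myeloid integrin, had 7, 1 and 8 counts, against 2 in ITGB4-high cells and 0 and 0 in the controls, and CD68, a macrophage marker, had 6, 8 and 25, against 6 in ITGB4-high cells and 6 and 11 in the controls. PTPRC was thus above its control in the clone 1 lung libraries, while its interval included 1 in LM2 lung clone 3. Its relation to the STAT5A counts was not tested.

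The 8 fibroblast and smooth muscle markers summed to 573, 787 and 482 CPM in LM2 lung clone 1, LM2 lung clone 3 and the bleomycin lung library, against 211 in ITGB4-high cells and 120 and 122 in the controls, with 6, 6 and 7 of 8 above 3 counts in the lung libraries, 6 in ITGB4-high cells and 5 in each control. Most of the lung sums came from COL1A1 (90.3, 711 and 194 CPM, against 32.2 in ITGB4-high cells and 36.2 and 29.8 in the controls) and PDGFRA (449, 27.5 and 221 CPM, against 130 in ITGB4-high cells and 32.5 and 35.1 in the controls). The members went different ways. COL1A1, COL1A2 and ACTA2 were above both controls in all lung libraries, PDGFRB was below both, and PDGFRA was below both in LM2 lung clone 3 alone. For ACTA2 the order was narrow, at 8.51 CPM in LM2 lung clone 1 against 8.45 in control clone 3. Its ratio to the own control there had a counting interval of 0.975 to 1.72. The 8 endothelial markers summed to 4.33, 10.6 and 12.4 CPM, against 6.56 in ITGB4-high cells and 73.2 and 108 in the controls, a sum set in the controls by KDR (70.7 and 105 CPM), and CDH5 was at 0. In the lung libraries 2, 2 and 4 of these 8 were above 3 counts, against 3 and 5 in the controls. PECAM1 was the endothelial marker above both controls in all lung libraries (2.32, 3.64 and 9.41 CPM, against 3.06 in ITGB4-high cells and 1.80 and 2.02 in the controls). The 8 lung epithelial markers summed to 6.58, 5.68 and 4.80 CPM, against 3.06 in ITGB4-high cells and 7.06 and 6.20 in the controls, where NKX2-1 was the largest part (4.08 and 3.902 CPM), with SFTPC, SFTPA1 and SCGB1A1 at 0 and 2, 3 and 2 of 8 above 3 counts in the lung libraries and 3 in each control. AGER (3.79, 2.87 and 3.52 CPM, against 2.48 in ITGB4-high cells and 2.28 and 1.79 in the controls) and LAMP3 (2.71, 1.40 and 1.15 CPM, against 0.583 in ITGB4-high cells and 0.553 and 0.459 in the controls) were above both controls in all lung libraries. The marker genes named here were picked after their values were seen. Of all tested genes, 20.4% lay above both controls in all lung libraries and 25.4% below both, so these orders alone do not set a marker apart. The part of host cells in the STAT5A values was not tested, nor was that of mouse reads aligned to the human genome.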

How the data were processed

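Poly(A) RNA of 6 libraries was sequenced. The deposited values are raw counts of reads per gene. Per the submitters' processing notes, the aligner was STAR 2.7.1a and the genome hg38. The kit marks strand per the labels' protocols. The counter, its annotation and its strand setting are not named in those sources. Of 58336 identifiers, 58216 matched GENCODE release 29 (GRCh38). Total counts ran from 13607953 to 22222121, and intervals and the floor of 3 counts cover counting error only.

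Tests used edgeR 4.0.16 (R 4.3.3): quasi-likelihood, TMM factors, robust fit, filterByExpr at a minimum count of 10 (15673 genes), Benjamini-Hochberg over all of them at 0.05, with no fold minimum. All 6 libraries entered each fit, with 4 groups (2 residual degrees of freedom, so groups of 1 library borrow their spread) or, for all lung cells, 3 classes (3). The lung class holds clone 1 under both triggers. Code was tested on simulated data. Alternatives were RLE factors, library size alone, no filter, DESeq2 1.42.0, each library left out, and the clone as a replicate block. Same-numbered libraries are the same clone per their titles; the correlation of their deviations was 0.00115 over 15673 genes. Control and LM2 lung pairs differed by more than sampling noise (chi-square per degree of freedom 8.67 and 80.1). The libraries of a pair are different clones per their titles, so p-values reflect a spread between clones together with any technical spread. Within the 4 groups each clone has 1 library, so spread within a clone was not measured.

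RPKM used the union of GENCODE exons. The members, lists and tests were chosen with earlier results of these data known. Named genes were the 5 members, 28 core pathway genes, called pathway genes and the 5 profiles closest to STAT5A. Those profiles came from protein-coding genes with a mean log2 CPM of 2 or more (prior count 2), without locus identifiers and open reading frame names. Antisense genes, pseudogenes and other non-coding genes were thus left out. STAT4 and the neighbours were named after their values were seen. A gene of the pathway list and a marker gene are not reported here by name.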

Additional observations from a re-analysis of the deposited data

Results flagged for a closer look

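Some genes moved in opposite directions in the 2 LM2 lung clones relative to their own controls, with counting intervals that exclude no change on both sides. Those given here are examples, and further genes, PDGFRA and SOCS2-AS1 among them, did the same. The share of all genes that did was not counted. The intervals take the scaling factors as exact, and that of BCL2L1 in clone 3 reached a fold of 0.9945. With 1 library per clone and condition, the difference between clones was not tested. PIM1 had a log2 ratio of -2.68 in clone 1 and 0.76 in clone 3. STAT3 was at 0.30 in clone 1 and -0.31 in clone 3. BCL2L1 was at 0.41 in clone 1 and -0.07 in clone 3. STAT5A was at 4.77 in clone 1 and 5.05 in clone 3 in the same libraries.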

How the results depend on the processing

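The STAT5A log2 change of all lung cells over control kept its direction under every alternative run, at 4.78 to 4.85 under other scalings, no filter, the replicate block and DESeq2, and at 4.60 to 4.99 with 1 library left out. Calls of the other pathway genes, 0 in each of the 5 comparisons, did depend on the processing. In the order all lung, LM2 lung, bleomycin lung and ITGB4-high over control, then bleomycin over LM2 lung, DESeq2 called 11, 3, 1, 11 and 1 of them, and edgeR without the filter on low counts called 12, 11, 9, 17 and 2 of 68 (6.47%, 5.25%, 4.3%, 8.14% and 0.709% of all 33274 genes then tested). With 1 library left out the counts ran from 0 to 5, 0 to 28, 0 to 25, 0 to 30 and 0 to 19. RLE factors and library size alone gave 0 in all 5. The clone as a replicate block gave 1 for ITGB4-high over control (JAK2) and 0 elsewhere. That is 2.04% of the 49, near the 2.32% of all genes called in that fit. Member calls ran from 0 to 1 for ITGB4-high over control and from 0 to 2 for bleomycin over LM2 lung with 1 library left out, and were 0 under the other alternatives. For bleomycin over LM2 lung, the PIM1 change of -0.02 turned to 1.26 with the block and to 2.52 without LM2 lung clone 3, and the STAT5B change of 0.19 turned to -0.01 without LM2 lung clone 1. In the same comparison PIM1 was -0.88 without LM2 lung clone 1, and STAT5B 0.42 without LM2 lung clone 3, both then called. The cause was not tested, beyond that fewer libraries entered some fits. Depth limits CISH (2 to 14 counts) and the cultured STAT5A levels (6 or 7 counts).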
